A study of Arabidopsis thaliana with 4 samples.

Results

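The wound-induced polypeptide genes WIP4 (AT4G10270) and WIP5 (AT4G33560), both on chromosome 4 of Arabidopsis thaliana, were followed in total RNA and in RNA from large polysomes of seedlings with and without hypoxia. They were chosen as named genes of the core hypoxia response, by locus identifier. Each had 1 probe set on the array, 255807_at for WIP4 and 253298_at for WIP5, so they make up 2 of the 13355 genes with a named probe set. All seedlings were wild type of the Ler accession, 7 d old and kept under low light. The 4 groups were total RNA of non-stressed seedlings, total RNA after 12 h of hypoxia, large-polysome RNA of non-stressed seedlings at 12 h and large-polysome RNA after 12 h of hypoxia. Each group was measured on 1 array. The labels give no time for total RNA of non-stressed seedlings, so ratios that use this array may include a difference in sampling time. Whole seedlings were used, so a change in the number of cells that carry an mRNA and a change in mRNA per cell cannot be told apart.

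Wound-induced polypeptides are short plant proteins of a small family, named after relatives whose transcripts accumulate at wounds. They are unrelated to the zinc finger proteins that carry the same WIP abbreviation in Arabidopsis. Core hypoxia genes are transcripts that accumulate in many plant cell types when oxygen runs short. Many of them are targets of ethylene response factors whose N-terminus marks them for breakdown as long as oxygen is present. Polysomes are mRNAs loaded with several ribosomes, so large-polysome RNA over total RNA compares the share of an mRNA on many ribosomes with the share of an average mRNA. It does not measure protein output.

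Intensities were linear and set to a common mean on each array, so each value reads as signal compared with the mean of that array. A floor at an intensity of 139, the highest 40th percentile over the arrays, marked the limit below which no ratio was formed between a pair of values. From 54.7% to 60.01% of the probe sets that are not controls lay at or above it. No p-value was computed, because 1 array per group gives no spread between samples, and no difference has a replicate check. A threshold of 2-fold was used for counting. As a measure of probe error, the log2 hypoxia over control ratios of paired probe sets for 1 gene were compared. In total RNA they lay a median of 0.33 apart over 62 genes, with a 95th percentile of 0.93, and in large-polysome RNA 0.37 apart over 30 genes, with a 95th percentile of 1.30. Among root markers, the log2 hypoxia over control ratios in total and large-polysome RNA were -0.44 and 0.16 for PYK10 and -1.82 and -1.15 for EXPA18. EXPA7, under the floor in hypoxia, was at most -1.29 and -0.22. The 4 green shoot marker genes had medians of -0.23 and 0.00. The part of this shift in the values below was not tested.

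WIP4 and WIP5 mRNAs were far higher in hypoxia than in control seedlings, in both RNA fractions. The intensity of WIP4 was 333.9 in total RNA of control seedlings, 589.1 in large-polysome RNA of control, 7599.7 in total RNA in hypoxia and 9401.4 on large polysomes in hypoxia. Both hypoxia arrays stood far above both control arrays, and the lower hypoxia value was 12.9 times the higher control value. The intensity of WIP5 was 351.9 in total RNA of control seedlings, 441.8 in large-polysome RNA of control, 2236.5 in total RNA in hypoxia and 3785.5 on large polysomes in hypoxia. The arrays fell in the same order as for WIP4, and the lower hypoxia value was 5.06 times the higher control value. Within a condition the neighbours in this order, total and large-polysome RNA, lay much closer together, and for both genes these steps were below the 95th percentile of the probe error given with them. All 8 values were above the floor. The dimmest, WIP4 in total RNA of control seedlings, was 2.40 times the floor, and the brightest was 67.57 times the floor.

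**Figure D1:**
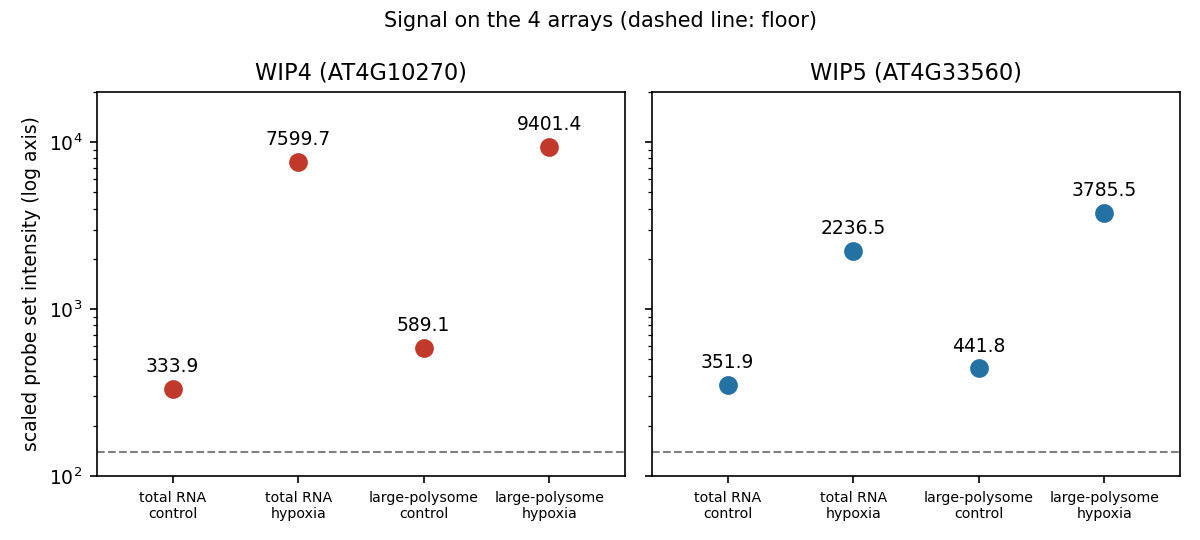
Scaled probe set intensity (log axis) of WIP4 and WIP5 on the 4 arrays, 1 point per array, with the floor of 139 as a dashed line. For both genes the 2 hypoxia arrays lie above the 2 control arrays, at 7599.7 and 9401.4 for WIP4 and at 2236.5 and 3785.5 for WIP5.

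In total RNA, hypoxia over control asks how far the amount of each mRNA moved. WIP4 was 22.8-fold higher in hypoxia, a log2 ratio of 4.51, and WIP5 6.36-fold higher, a log2 ratio of 2.67. Both genes passed 2-fold, as did 5.42% of the 7639 named genes with a ratio, while 8.72% were at least 2-fold lower. The median log2 ratio of all named genes was -0.06. WIP4 had the highest ratio among all 12132 probe sets above the floor on both total RNA arrays, whether named or not; probe sets with only a bound are not in this order. WIP5 had 42 of these probe sets above it, and stood 22nd among the 6345 named genes of that kind. Scaling on 15 spiked control probe sets turned the balance of all named genes from 414 higher and 666 lower to 632 and 389, and quantile normalization gave 540 and 580. The ratios of the WIP genes lay between 4.32 and 4.72 and between 2.51 and 2.88 under 6 alternatives.

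In large-polysome RNA, where both labels give 12 h, WIP4 was 16.0-fold higher in hypoxia (log2 4.0) and WIP5 8.57-fold higher (log2 3.10). At least 2-fold higher in this fraction were 8.07% of 7314 named genes and 735 genes were at least 2-fold lower. The median log2 ratio of all of them was -0.07. Among genes measured on both of these arrays, 3 named ones had a higher ratio than WIP4 and 17 a higher ratio than WIP5. Counting unnamed probe sets as well, 12 and 37 of 11676 stood higher. On the spiked controls, 415 named genes were at least 2-fold higher and 1169 lower, against 590 and 735.

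The 2 ratios share no array, so a gene that stands high in both does so in separate hybridisations. Of the 5847 named genes above the floor on all 4 arrays, none other equalled or passed WIP4 in both fractions. This was fixed by its place at the top in total RNA, so the large-polysome ratio adds nothing to it. AT5G10040, under the floor in control, is not among the 5847, and its log2 ratios of at least 5.09 and 5.38 lay above WIP4 in both fractions. WIP5 was equalled or passed in both fractions by 12 of the 5847. Of these, 6 belonged to the core hypoxia list, among them WIP4 and PDC2, a pyruvate decarboxylase of ethanol fermentation. Among all 5847 genes, 21 belonged to the list, WIP5 included. The list was written down with earlier results of these data known.

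**Figure D2:**
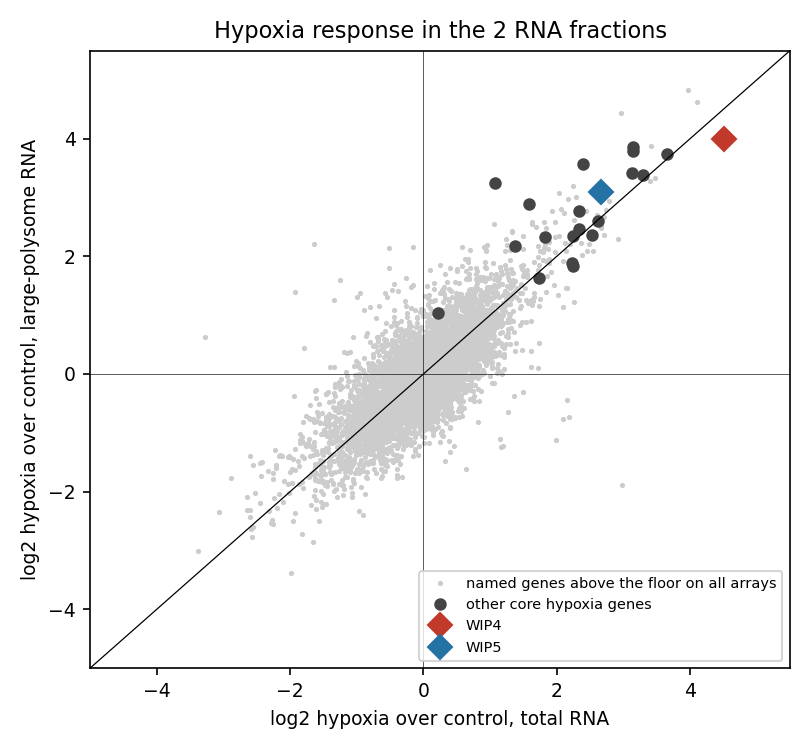
Log2 hypoxia over control in total RNA (x axis) against large-polysome RNA (y axis) for the 5847 named genes measured on every array. The diagonal line marks equal ratios. WIP4 lies farthest to the right, at 4.51 and 4.0, just below the diagonal, and WIP5 at 2.67 and 3.10 lies above it among the other core hypoxia genes.

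Against each other, the WIP genes differed more in total RNA than in large-polysome RNA. The log2 response of WIP4 exceeded that of WIP5 by 1.84 in total RNA, or 3.58-fold, which was above the 95th percentile of 0.93 seen between probe sets of 1 gene. In large-polysome RNA the excess was 0.90, or 1.86-fold, which was below the 95th percentile of 1.30. Because both genes were read on the same arrays, a common scaling factor cancels in these differences, and over the alternatives they stayed between 1.81 and 1.84 and between 0.90 and 0.93.

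The core hypoxia list, 50 genes written down from knowledge of the response in other studies with earlier results of these data known, gave the WIP genes their context. It had 28 genes with a named probe set, the WIP genes included. In total RNA 24 others were measured, with a median log2 ratio of 2.36. Of these, 22 were at least 2-fold higher in hypoxia, against 5.42% of all named genes. Places in the list are given among the 22 genes above the floor on both arrays, since 4 others had only a bound. WIP4 was the highest of these 22, followed by the calmodulin-like gene CML38 at 4.26. WIP5 was 8th, between AT5G66985 at 3.13 and AT5G42200 at 2.62, and FHL was the lowest at 0.22. With control signals under the floor, AT5G10040 was at least 34.1-fold higher, which is above WIP4, and AT3G10040 (HRA1, hypoxia response attenuator) at least 19.5-fold higher, which leaves its order against WIP4 unknown. The bounds of AT4G24110 and AT3G02840 were log2 ratios of at least 3.02 and 0.20.

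In large-polysome RNA 23 of 25 others passed 2-fold upward, against 8.07% of all named genes, and the median of the 25 was 2.77. Above the floor on both arrays were 22 genes, of which WIP4 was again the highest, followed by PDC2 at 3.87. WIP5 was 9th, between AT3G10020 at 3.25 and AT1G19530 at 2.90, and the lowest was AT1G72940 at -0.28. Of the 5 genes with a bound, AT5G10040 and CML38 lay above WIP4, at least 41.7-fold and 33.5-fold higher. AT4G24110, HRA1 and AT3G02840 had log2 ratios of at least 3.79, 3.70 and 0.79, and their order against WIP4 is unknown.

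Large-polysome over total RNA asks how the share of each mRNA on large polysomes compared with that of an average mRNA. In control seedlings the log2 ratio was 0.82 for WIP4 and 0.33 for WIP5, or 1.76-fold and 1.26-fold. Neither reached 2-fold, which 2.08% of 7508 named genes did upward and 2.77% downward. WIP4 had a high ratio for a named gene, as 4.21% of the 6610 above the floor in both fractions stood higher, while 23.6% stood above WIP5. Among the 21 core hypoxia genes above the floor on both arrays WIP4 was the highest and AT3G03270 followed at 0.51. AT1G72940, under the floor in total RNA, had a ratio of at least 0.54, so its order against WIP4 is unknown. WIP5 was 5th, between AT5G44730 at 0.36 and TIL, a temperature-induced lipocalin, at 0.31. The lowest was FHL at -0.56, and the median of the 19 others was -0.01. Probe sets of the same gene differed by a median of 0.45 and a 95th percentile of 1.58 in this ratio (32 genes), so the WIP4 value was above that median and both WIP values were below the 95th percentile.

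In hypoxia the order of the pair was the other way round. WIP4 now had a log2 fraction ratio of 0.31 and WIP5 of 0.76, or 1.24-fold and 1.69-fold. At least 2-fold higher were 1.06% of 7077 named genes, and as many were lower. Of the 6247 named genes above the floor in both fractions, 21.7% stood above WIP4 and 3.94% above WIP5. Among the 26 core hypoxia genes above the floor on both arrays WIP5 was 3rd, between AT4G24110 at 0.77 and AT1G19530 at 0.75, and WIP4 was 11th, between AT4G39675 at 0.43 and CML38 at 0.30. These genes ran from HRA1 at -0.59 to AT3G10020 at 1.66, with a median of 0.28 for the 24 others. The probe error was a median of 0.52 and a 95th percentile of 1.24 (51 genes), with both WIP values under the latter. The difference of WIP4 minus WIP5, -0.45 in hypoxia, was smaller in size than this median. In control it was 0.49, against a median of 0.45 there and a 95th percentile of 1.58. The reversed order of the pair thus lay within the range of probe error.

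The fractions also differed in measures of the state of the RNA. Actin control probe sets, which compare signal near the 3' and 5' ends of the mRNA, gave 3' over 5' ratios of 2.45 and 2.15 on the large-polysome arrays of control and hypoxia. On the total RNA arrays they gave 1.39 and 1.22. For GAPDH the ratios of control and hypoxia were 1.11 and 1.29 in large-polysome RNA and 0.96 and 1.12 in total RNA. Within each condition GAPDH was thus also higher in large-polysome RNA, by less than actin. The part of these differences in the fraction ratios of WIP4 and WIP5 was not tested. Scaling on the spiked controls raised the all-gene median by 0.51 in control and by 0.11 in hypoxia. On that scale the control ratios were 1.37 for WIP4, past 2-fold, and 0.88 for WIP5. The counts of named genes became 1111 higher and 33 lower in control, against 156 and 208, and 121 and 47 in hypoxia, against 75 and 75.

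The change of association, the log2 fraction ratio in hypoxia minus that in control, had opposite signs for the WIP genes. It was -0.51 for WIP4 and 0.43 for WIP5, against a median of -0.01 over 5847 named genes. Neither reached 2-fold, as 3.03% of these genes did upward and 1.90% downward. The difference of -0.94 between WIP4 and WIP5 was larger than the median difference of 0.47 between probe sets of the same gene, and smaller than the 95th percentile of 1.02 (30 genes). It is the same quantity as the narrowing of their gap from 1.84 in total RNA to 0.90 in large-polysome RNA, and it lay between -0.94 and -0.89 over the alternatives. The sign for WIP5 alone rested on the scaling, since on the spiked controls, where the median of all genes moved by -0.43, WIP5 stood at -0.01 and WIP4 at -0.95. The same scaling gave 41 named genes at least 2-fold higher and 620 lower, against 177 and 111.

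Of the 21 core hypoxia genes above the floor on all 4 arrays, WIP4 had the lowest change of association. Next to it was AT4G27450 at -0.41, and the highest was AT3G10020 at 2.18. WIP4 and AT4G27450 lay closer together than the median of 0.47 between probe sets of the same gene, so their order is within probe error. WIP5 was 10th, between AT4G39675 at 0.43 and AT5G66985 at 0.28, and the 19 others had a median of 0.28. In all, 15 of the 21 were above 0 and 6 below, against 49.0% of all named genes above 0. The sign rested on the scaling, as on the spiked controls 8 of 20 were above 0 and the list median was -0.08. The median of all named genes was -0.44 on that scale, so the list median lay above it there too. The total RNA arrays enter both this change and the total RNA response, in opposite directions, so a high response of a gene in total RNA and a low change of its association are not separate measurements.

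**Figure D3:**
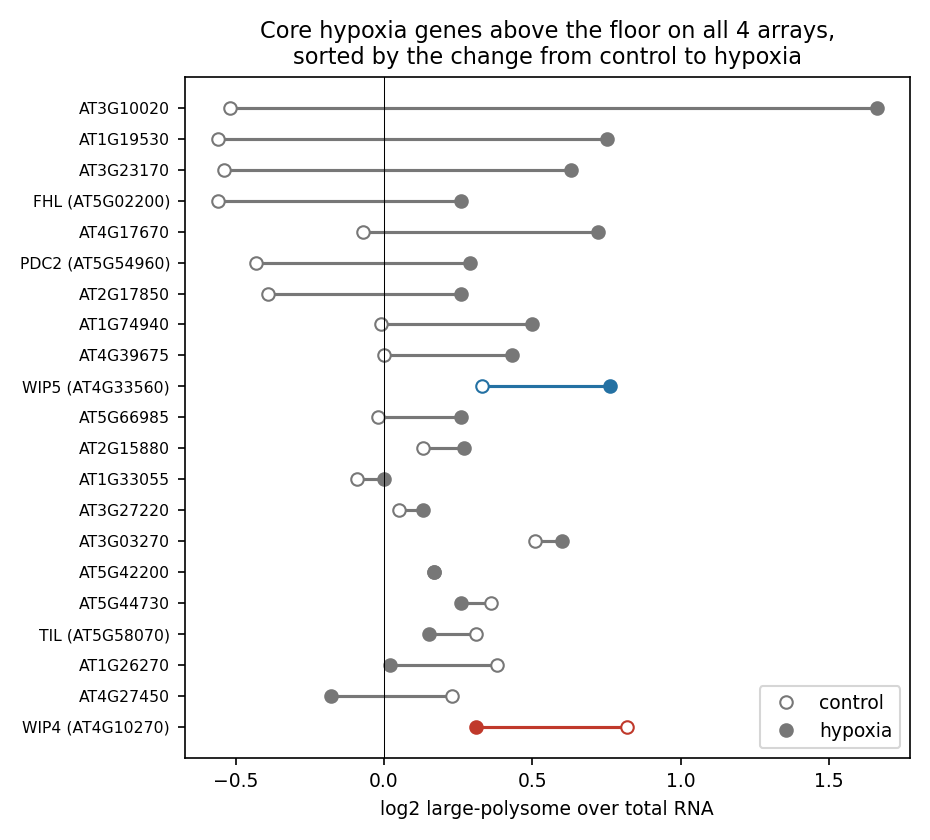
Log2 large-polysome over total RNA in control (open circles) and hypoxia (filled circles) for the 21 core hypoxia genes above the floor on all 4 arrays, sorted by the change. WIP4 moved from 0.82 to 0.31 and lies at the bottom, and WIP5 moved from 0.33 to 0.76.

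Genes were compared with WIP4 and WIP5 by the Euclidean distance between log2 intensities on the 4 arrays, each gene centred on its own mean, over the 5846 other named genes above the floor on every array. A small distance on 4 arrays is a description of these hybridisations. The nearest to WIP4 were GSTU25, a glutathione S-transferase, at a distance of 0.64, AT1G54050 at 0.71, AT1G19020 at 0.80, the core hypoxia gene AT1G33055 at 0.87 and AT2G41730 at 0.90. GSTU25 differed from WIP4 in its fraction ratios, at -0.05 in control and 0.47 in hypoxia. AT2G41730 had fraction ratios of 0.86 and 0.73, and its change of association, -0.13, was the only one of the 5 below 0.

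The genes nearest to WIP5 lay closer to it. They were AT1G69680 at a distance of 0.22, AT1G72800 at 0.35, AT1G62510 at 0.36, AT5G26200 at 0.42 and the core hypoxia gene AT4G39675 at 0.47. AT1G69680 went from 407.8 in control to 2712.7 in hypoxia in total RNA, and from 593.8 to 4114.4 on large polysomes. Its log2 responses were therefore 2.73 and 2.79, against 2.67 and 3.10 for WIP5. Between WIP4 and WIP5 the distance was 1.45, which made WIP5 the 11th nearest to WIP4 and WIP4 the 103rd nearest to WIP5.

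**Figure D4:**
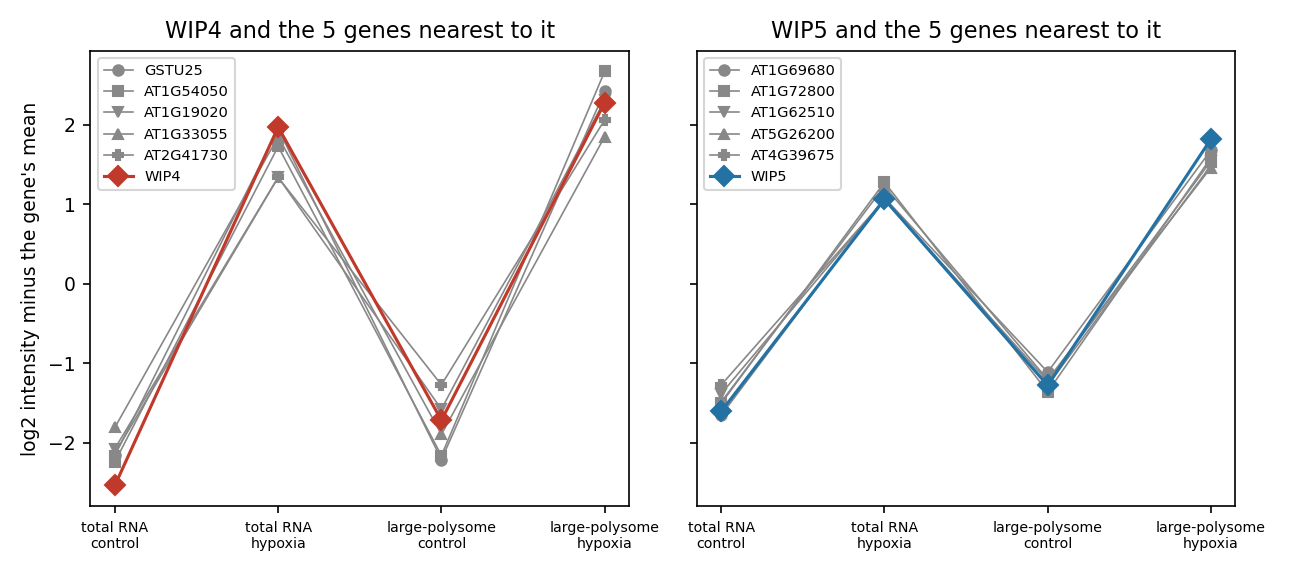
Log2 intensity on the 4 arrays minus the mean of each gene, for WIP4 (left) and WIP5 (right) with the 5 named genes at the smallest distance from each. The genes near WIP5 lie within a distance of 0.47 of it, and those near WIP4 within 0.90.

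Genes next to the WIP genes on the chromosome, looked up by position after the values of the WIP genes were known, had hypoxia ratios below 0 where they could be measured. AT4G10280, on 1 side of WIP4, had intensities of 249.7 and 467.7 in total and large-polysome RNA of control seedlings and 10.3 and 22.2 in hypoxia, under the floor, so that it was at least 1.79-fold and at least 3.36-fold lower. AT4G10265 on the other side had no named probe set, and whether the WIP4 probes also bind its mRNA was not analysed here. AT4G33550, beside WIP5, had log2 responses of -0.72 and -0.17, the latter smaller in size than the median probe error of 0.37. Ratios below 0 were common, as 46.0% of all named genes were above 0 in total RNA and 45.3% in large-polysome RNA.

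Other wound genes could hardly be followed. Of 29 genes written down for the jasmonate and wound response 1 had a named probe set, the defensin gene PDF1.2, and it was below the floor on all 4 arrays. Of 14 regulators of oxygen sensing 1 was named, HRA1, with values given above. SAG20 and WR3, which RefSeq synonyms call wound-induced or wound-responsive, had no named probe set.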

How the data were processed

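The deposited values were linear intensities, 1 for each of 22810 probe sets of the Affymetrix ATH1 array (the array type is per the file headers). The software that made them and its background correction: not given in the sources used here. Per the file headers, the array of total RNA in hypoxia was scanned 2 times and the others 1 time. Arrays were brought to 1 trimmed mean, taken over the 22746 non-control probe sets from the 2nd to the 98th percentile. Values under the floor were set to it before log2, a ratio with 1 side under it is a bound, and a pair under it has none. Of the probe sets 13513 had 1 gene in the platform annotation, 503 several and 8730 none; 13436 matched RefSeq (TAIR10.1, used for names and neighbours). A gene took its brightest probe set by mean. The members and lists were chosen with earlier results of these data known. Named genes were the members, the highest, lowest and adjacent genes of each list, the 5 nearest patterns, root markers and genes with wound synonyms. The neighbours on the chromosome were named outside this rule. Python 3.11.15, numpy 2.4.6 and pandas 2.3.3 were used, and the functions were tested on simulated data. Alternatives were quantile normalization, spiked controls above 2 times the floor, unscaled values, floors at the 20th and 60th percentiles, and log2(intensity + 50).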

Additional observations from a re-analysis of the deposited data

How the results depend on the processing

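The floors of 44.9 and 329.0 at the 20th and 60th percentiles could not move the WIP ratios, since every WIP intensity was above them. Unscaled values could hardly move them, as the scale factors lay between 0.999 and 1.0013. With these settings counted, 58 of the 60 values of the WIP genes under the alternatives moved by less than the median difference between probe sets of the same gene. The exceptions were the control fraction ratios on the spiked controls, 1.37 for WIP4 and 0.88 for WIP5 against 0.82 and 0.33, and WIP5's change of association came to -0.01 there. The median change of association of the core hypoxia list went from 0.28 to -0.08 on that scale, and its control fraction ratio from 0.00 to 0.55. The medians of all named genes went from -0.01 to -0.44 and from -0.02 to 0.49. Counts of all named genes moved more, by over 1.5 times in 38 of 70 recounts. In total RNA, 414 higher and 666 lower became 632 and 389 on the spiked controls, 642 and 1134 with the floor at the 20th percentile and 778 and 1435 over all probe sets, and the lower count became 299 with the floor at the 60th. In large-polysome RNA, the 735 lower became 1169, 1180, 1539 and 376 in the same order, and the 590 higher became 1127 over all probe sets. For the control fraction ratio, 156 and 208 became 1111 and 33 on the spiked controls, 262 and 495 with the lower floor, 278 and 477 over all probe sets, and 96 and 105 with the higher floor. In hypoxia, 75 and 75 became 121 and 47, 176 and 303, 140 and 164, and 45 and 50, and the lower count was 173 with log2(intensity + 50). For the change of association, 177 and 111 became 41 and 620, 383 and 317, 334 and 208, and 95 and 50, and 385 and 344 with log2(intensity + 50). The cause was not tested, except that recounts over all probe sets cover more of them. No paired analysis was possible because each group had 1 array. The number of arrays limits the precision, and the control signals of the WIP genes were within 2.40 to 4.23 times the floor.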
